A study of Citrus trifoliata and Citrus junos with 20 samples.

Results

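csi-miR390 and csi-miRN19 face each other in a predicted miRNA hairpin, and they were followed here across the miRNA libraries of citrus roots. Both were chosen by name. csi-miR390 is listed among the known miRNAs and csi-miRN19 among the predicted ones, and together they make up 2 of the 100 distinct miRNAs counted, 49 known and 51 predicted. The 18 libraries came from roots of trifoliate orange (Poncirus trifoliata, Pt), which is sensitive to alkaline conditions, and of Ziyang xiangcheng (Citrus junos, Cj), which tolerates them. Seedlings spent 8 weeks in hydroponic culture at pH 6.5, taken as normal, at pH 8.0 or at pH 9.5. Each combination of rootstock and pH gave 3 libraries, and a library pooled the roots of 3 seedlings. The study calls the 3 pools of a group biological replicates, and each holds other seedlings. No source used here states that they grew in separate vessels, so the p-values cover the spread between these pools only. The counts cover miRNAs only, so the tissue could not be checked against marker genes, and the reads of both species were matched to the genome of another one, sweet orange (Citrus sinensis).

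miR390 is an old plant miRNA with an unusual role. In Arabidopsis it is loaded into AGO7, an Argonaute protein that takes almost no other miRNA, and it guides this protein to the non-coding TAS3 transcript, which is then cut into phased trans-acting small RNAs. These small RNAs repress a group of auxin response factors, and in Arabidopsis roots the miR390 and TAS3 module is known for its part in the outgrowth of lateral roots. A miRNA hairpin yields a duplex of 2 strands, a guide that stays in the Argonaute protein and an opposite strand that is usually discarded. The counts used here list miRNAs only, so they hold no TAS3 transcripts or TAS3 small RNAs, and degradome sequencing was not used here. The study did search its small RNA libraries for genes that yield phased small RNAs. The triggers its text names for them are other miRNAs than csi-miR390. That search was not repeated here.

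The sequences are shown because the relation of both miRNAs rests on them. In the mature sequences the capitals mark the seed (bases 2 to 8), which no other listed miRNA shared with either of them.
csi-miR390: aAGCUCAGgagggauagcgcc
csi-miRN19: cGCUAUCUauccugaguuuuc
The predicted precursor of csi-miRN19 holds the whole csi-miR390 sequence as its opposite strand. It is placed by the authors on chromosome 8 of the sweet orange genome (release not given in the sources used here), plus strand, from 22526176 to 22526425, a length of 250 nt. The csi-miR390 sequence lies there at 22526306 to 22526326 and csi-miRN19 at 22526384 to 22526404. No annotation was at hand to say whether this stretch overlaps a gene. The stretch from the first base of csi-miR390 to the last base of csi-miRN19 follows, with both strands in capitals and the 57 bases between them in lower case.
csi-miRN19 precursor: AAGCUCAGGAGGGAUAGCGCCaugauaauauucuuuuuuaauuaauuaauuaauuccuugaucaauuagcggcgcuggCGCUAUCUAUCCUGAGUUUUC
In the deposited fold, 18 bases of the 21 nt csi-miR390 pair with csi-miRN19, of which 16 are Watson-Crick pairs and 2 are G-U pairs. The unpaired bases are 11, 20 and 21 of csi-miR390 and 9, 20 and 21 of csi-miRN19, so each strand leaves 2 bases free at its 3′ end. The deposited folding energy of the precursor is -70.7 kcal/mol.

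The known csi-miR390 is listed with a precursor of its own, which is a different one. It is 154 nt long, carries no position in the deposited list, and also has 57 bases between its strands, with other letters in them.
csi-miR390 precursor: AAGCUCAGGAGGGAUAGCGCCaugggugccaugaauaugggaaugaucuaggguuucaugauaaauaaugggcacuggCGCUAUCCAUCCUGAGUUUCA
The 21 bases across from csi-miR390 in this precursor are printed next, with the 3 bases that differ from csi-miRN19 in capitals.
opposite arm of the csi-miR390 precursor: cgcuaucCauccugaguuuCA
Counted from the 5′ end of csi-miRN19 and with its base first, the differences are U8C, U20C and C21A. The csi-miR390 sequence is thus present in both precursors, while the csi-miRN19 sequence is present in the chromosome 8 precursor only. Reads of csi-miR390 could come from either precursor and cannot be told apart in the counts, so the strand ratios below set 1 strand of a single hairpin against a sequence that 2 hairpins share. Among the sites that the target list of the study assigns to csi-miR390 is a stretch of the gene Cs9g01780, whose function is not annotated there. The study predicted the listed targets from its degradome sequencing, which was not examined again here. The site is shown with the unbroken complement in capitals, 16 bases opposite bases 2 to 17 of csi-miR390.
Cs9g01780 site: ttgtCTATCCCTCCTGAGCTg

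Both strands were moderately abundant and present in each of the 18 libraries. csi-miR390, the guide strand, had between 177 and 1287 reads in Pt libraries and between 936 and 2710 reads in Cj libraries. csi-miRN19, the opposite strand, had between 19 and 231 reads in Pt libraries and between 234 and 530 reads in Cj libraries. Among the 100 miRNAs of a library, csi-miR390 ranked from 30 to 34 in Pt and from 25 to 30 in Cj, and csi-miRN19 ranked from 49 to 58 in Pt and from 38 to 52 in Cj. The lowest read counts of both strands come from Pt pH 8.0 replicate 1, which held 77255 listed reads, while the other 17 libraries held between 254842 and 771522. In the following, levels are CPM, TMM-scaled reads-per-million of the listed miRNA reads. A difference counts as called where edgeR's quasi-likelihood test gave an adjusted p (Benjamini-Hochberg, over 96 miRNAs) under 0.05.

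csi-miR390 was less abundant in Pt than in Cj at each pH. At pH 6.5 it had 2066, 1554 and 1530 CPM in the Pt libraries, against 4785, 4618 and 4530 CPM in the Cj libraries. At pH 8.0 it had 2299, 2230 and 2027 CPM in Pt, against 2878, 2671 and 3450 CPM in Cj. At pH 9.5 it had 2256, 1814 and 1842 CPM in Pt, against 3157, 4382 and 5288 CPM in Cj. The highest Pt library (2299 CPM) lay below the lowest Cj library (2671 CPM), so the rootstocks did not overlap over the 9 libraries of each. Between the rootstocks 59.4% to 63.5% of the tested miRNAs were called, depending on the pH. How many other miRNAs were apart without overlap was not counted. On the TPM values of the authors, which use another total, csi-miR390 ranged from 1134 to 1466 in Pt and from 2407 to 4081 in Cj. In whole roots, fewer cells that make a miRNA and less of it per cell cannot be told apart.

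csi-miRN19 followed the same order between the rootstocks. At pH 6.5 it had 459.5, 300.6 and 316.9 CPM in the Pt libraries, against 1231, 866 and 1052 CPM in the Cj libraries. At pH 8.0 it had 246.7, 345.6 and 288.3 CPM in Pt, against 719, 492 and 475.9 CPM in Cj. At pH 9.5 it had 430.4, 233.7 and 284.6 CPM in Pt, against 855, 662 and 751 CPM in Cj. Here too no Pt library reached a Cj library, which was not counted for other miRNAs. The gap was narrow, 459.5 CPM in Pt pH 6.5 replicate 1 against 475.9 CPM in Cj pH 8.0 replicate 3. On the TPM values of the authors the gap was wider, from 150.8 to 284.8 in Pt and from 390.6 to 1002 in Cj.

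**Figure D1:**
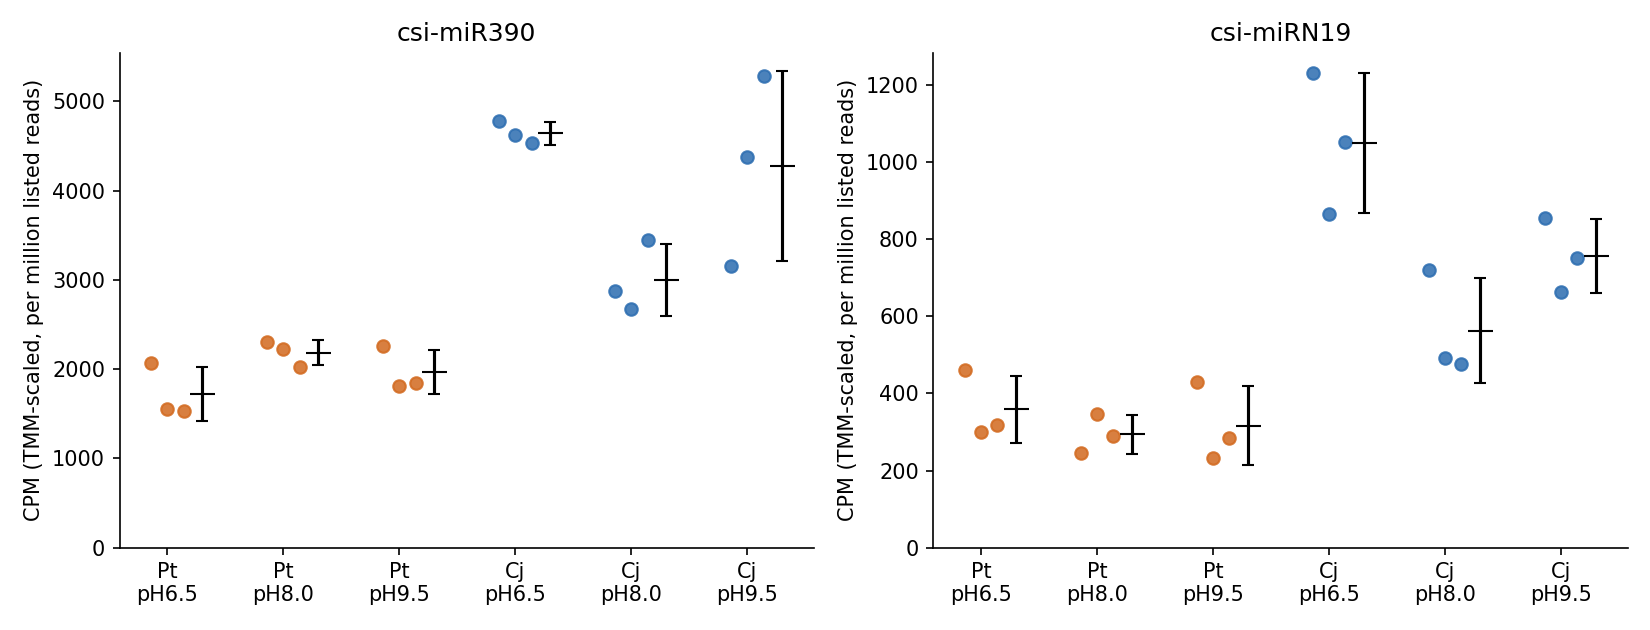
Levels of csi-miR390 (left) and csi-miRN19 (right) in CPM in the 18 libraries, by rootstock and pH. Points are libraries, and the dash with bars is the mean ± SD of 3 libraries. All Pt libraries sit below all Cj libraries, and in Cj both miRNAs are lowest at pH 8.0.

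Ordered by group mean, csi-miR390 was highest in Cj at pH 6.5 (4644 ± 129.5 CPM, SD, n = 3), followed by Cj at pH 9.5 (4276 ± 1070 CPM), Cj at pH 8.0 (2999 ± 403.5 CPM), Pt at pH 8.0 (2185 ± 141 CPM), Pt at pH 9.5 (1971 ± 247.5 CPM) and Pt at pH 6.5 (1716 ± 303 CPM). Of the neighbours in this order, Cj at pH 6.5 and 9.5 overlapped, as did Cj at pH 9.5 and 8.0, and so did the neighbouring Pt groups. Cj at pH 8.0 and Pt at pH 8.0 were the neighbours whose libraries did not overlap. csi-miRN19 was highest in Cj at pH 6.5 (1050 ± 182 CPM), followed by Cj at pH 9.5 (756 ± 96.3 CPM), Cj at pH 8.0 (562 ± 136 CPM), Pt at pH 6.5 (359 ± 87.4 CPM), Pt at pH 9.5 (316 ± 102 CPM) and Pt at pH 8.0 (293.5 ± 49.6 CPM). Its neighbouring groups overlapped as well, except Cj at pH 6.5 with Cj at pH 9.5, and Cj at pH 8.0 with Pt at pH 6.5.

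The difference between the rootstocks was largest at pH 6.5 in the fitted values of both strands. csi-miR390 was lower in Pt by a log2 difference of -1.44 (SE 0.19, 95% interval -1.83 to -1.04, adjusted p = 3.07e-07), and csi-miRN19 by -1.55 (SE 0.24, interval -2.05 to -1.05, adjusted p = 3.58e-06). These correspond to levels 2.71-fold and 2.93-fold lower in Pt. Between the rootstocks at this pH 63.5% of the tested miRNAs were called and 34.4% were called lower in Pt, so that a call is common here. At pH 9.5 csi-miR390 was lower in Pt by a log2 difference of -1.12 (SE 0.19, adjusted p = 1.42e-05) and csi-miRN19 by -1.25 (SE 0.24, adjusted p = 8.36e-05), where 59.4% of the tested miRNAs were called and 30.2% were lower. At both pH values the calls held with each library left out in turn.

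At pH 8.0 the rootstocks lay closest together. csi-miRN19 was lower in Pt by a log2 difference of -0.89 (SE 0.25, adjusted p = 0.00349), which held with each library left out. csi-miR390 was lower in Pt by -0.46 (SE 0.19, interval -0.85 to -0.07, adjusted p = 0.0405), where 59.4% of the tested miRNAs were called and 27.1% were lower. The csi-miR390 call was lost without Pt pH 8.0 replicate 2 (log2 difference -0.53, adjusted p = 0.0533), without Pt pH 8.0 replicate 3 (-0.48, adjusted p = 0.0817) and without Cj pH 8.0 replicate 3 (-0.39, adjusted p = 0.0791). Its size depended on the scaling. With the total mapped reads, the divisor of the authors' TPM values, as library sizes it was -0.93 (adjusted p = 1.91e-05). However, the median of all tested miRNAs moved with it, being -0.29 under that scaling and 0.19 with TMM factors. Relative to that median csi-miR390 lay between -0.65 and -0.62 and csi-miRN19 between -1.12 and -1.05 under the 5 scalings tried. A scaling shifts all miRNAs by nearly the same amount, so these narrow ranges follow from the measure and do not test the calls. The split of the calls moved likewise, with 31 higher and 26 lower in Pt under TMM and 21 higher and 39 lower with the total mapped reads. At pH 9.5 the split was 28 higher and 29 lower under TMM and 17 higher and 48 lower with the total mapped reads.

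In Cj both strands were lower at pH 8.0 than at pH 6.5. csi-miR390 differed by a log2 value of -0.63 (SE 0.19, interval -1.02 to -0.24, adjusted p = 0.0104) and csi-miRN19 by -0.91 (SE 0.24, interval -1.40 to -0.41, adjusted p = 0.00443), levels 1.55-fold and 1.87-fold lower. In this comparison 36.5% of the tested miRNAs were called and 25.0% were lower. The libraries of the pH groups did not overlap for either strand, and how many other miRNAs were apart in this way was not counted. The csi-miRN19 call held with each library left out. That of csi-miR390 was lost without Cj pH 8.0 replicate 1 (-0.48, adjusted p = 0.0854), without Cj pH 8.0 replicate 2 (-0.45, adjusted p = 0.115) and without Cj pH 6.5 replicate 3 (-0.58, adjusted p = 0.0644). Leaving the 5 most abundant miRNAs out of the library sizes gave -0.40 for csi-miR390 (adjusted p = 0.0497) and turned the split of all calls from 11 higher and 24 lower to 22 higher and 13 lower. Relative to the median of all tested miRNAs, csi-miR390 lay between -0.67 and -0.66 and csi-miRN19 between -0.94 and -0.92 under the 5 scalings. These ranges too are narrow by the way they are formed, and they do not test the calls.

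At pH 9.5 neither strand was called against pH 6.5 in Cj, where 28.1% of the tested miRNAs were. csi-miR390 differed by a log2 value of -0.12 (interval -0.51 to 0.27, adjusted p = 0.631), with 1 library above and 2 below the range at pH 6.5. csi-miRN19 differed by -0.47 (interval -0.96 to 0.01, adjusted p = 0.113), with all 3 libraries below those at pH 6.5. Between pH 9.5 and pH 8.0 in Cj, where 9.38% of the tested miRNAs were called, csi-miR390 differed by 0.51 (interval 0.12 to 0.90, adjusted p = 0.0815) and csi-miRN19 by 0.43 (interval -0.06 to 0.93, adjusted p = 0.246). The csi-miR390 difference passed the threshold without Cj pH 9.5 replicate 1, the lowest library of its group (0.56, adjusted p = 0.0356), and with the total mapped reads as library sizes (0.48, adjusted p = 0.0463). For both strands the low level at pH 8.0 in Cj was thus called against pH 6.5 and not against pH 9.5.

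In Pt no pH comparison was called for either strand. At pH 8.0 against pH 6.5, where 9.38% of the tested miRNAs were called, csi-miR390 differed by a log2 value of 0.35 (interval -0.05 to 0.74, adjusted p = 0.356) and csi-miRN19 by -0.25 (interval -0.77 to 0.28, adjusted p = 0.694). At pH 9.5 against pH 6.5, where 30.2% were called, the values were 0.20 (interval -0.19 to 0.59) for csi-miR390 and -0.18 (interval -0.68 to 0.33) for csi-miRN19. At pH 9.5 against pH 8.0, where 17.7% were called, they were -0.15 (interval -0.54 to 0.25) and 0.07 (interval -0.46 to 0.60). All 3 intervals of each strand included 0.

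The difference in response between the rootstocks was tested directly, as the change from pH 6.5 in Pt minus the change in Cj. For csi-miR390 at pH 8.0 it was 0.98 on the log2 scale (SE 0.27, interval 0.42 to 1.53, adjusted p = 0.0149), with 10.4% of the tested miRNAs called and 6.25% called in this direction. The parts of this value are the 0.35 in Pt and the -0.63 in Cj. With the total mapped reads as library sizes the part in Pt was 0.12 and the difference in response 0.72 (adjusted p = 0.0259). The call was lost without Pt pH 6.5 replicate 2 (0.94, adjusted p = 0.0506), Cj pH 6.5 replicate 1 (0.95, adjusted p = 0.0522), Cj pH 8.0 replicate 1 (0.82, adjusted p = 0.0599) or Cj pH 8.0 replicate 2 (0.79, adjusted p = 0.0544), and it held without the shallow Pt pH 8.0 replicate 1 (0.91, adjusted p = 0.0319). With TMM factors 6 miRNAs were called higher and 4 lower, and with the total mapped reads 5 higher and 12 lower. For csi-miRN19 the difference in response at pH 8.0 was 0.66 (interval -0.06 to 1.38, adjusted p = 0.228). At pH 9.5, where 18.8% were called, it was 0.32 for csi-miR390 (interval -0.23 to 0.87, adjusted p = 0.416) and 0.30 for csi-miRN19 (interval -0.40 to 1.00, adjusted p = 0.577).

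**Figure D2:**
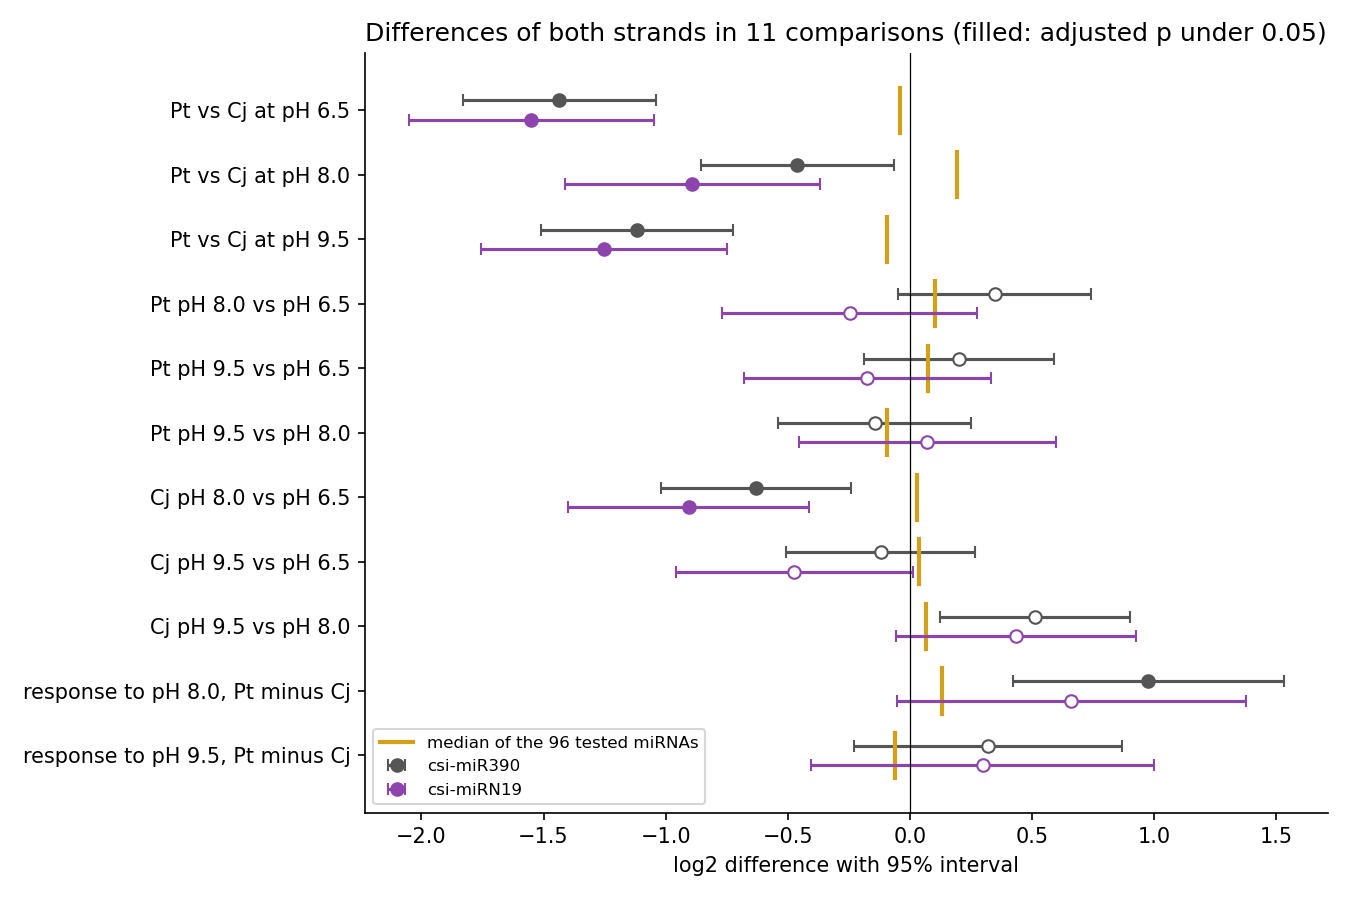
Log2 differences of csi-miR390 and csi-miRN19 with 95% intervals in the 11 comparisons, filled where the adjusted p was under 0.05, with the median of the 96 tested miRNAs as a vertical bar. The intervals of both strands lie below 0 for Pt against Cj at each pH and for pH 8.0 against pH 6.5 in Cj.

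The ratio of the strands was taken within each library, so that no scaling between libraries enters it. In Pt there were 22.3, 19.4 and 20.7 reads of csi-miRN19 per 100 reads of csi-miR390 at pH 6.5, then 10.7, 15.5 and 14.2 at pH 8.0, and 19.1, 12.9 and 15.5 at pH 9.5. In Cj there were 25.7, 18.8 and 23.2 at pH 6.5, then 25.0, 18.4 and 13.8 at pH 8.0, and 27.1, 15.1 and 14.2 at pH 9.5. csi-miR390 was thus the more abundant strand in all 18 libraries, by 3.69-fold at the least and 9.32-fold at the most. The lowest ratio came from the shallowest library, Pt pH 8.0 replicate 1, whose 19 csi-miRN19 reads made up 9.69% of the 196 reads of both strands (95% Wilson interval 6.29 to 14.6). The highest came from Cj pH 9.5 replicate 1, at 21.3% of 1718 reads (interval 19.4 to 23.3). These intervals cover counting error only. In 4 of the 6 groups, Pt at pH 9.5 and Cj at each pH, the libraries differed by more than that, since the intervals of the highest and lowest library did not overlap. In Pt at pH 6.5 and 8.0 they overlapped.

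The group means were 20.8 ± 1.45, 13.5 ± 2.46 and 15.8 ± 3.11 per 100 in Pt in the order of rising pH (SD, n = 3), and 22.6 ± 3.53, 19.1 ± 5.63 and 18.8 ± 7.18 in Cj. Over all pH values the ratio averaged 16.7 ± 3.85 in Pt and 20.2 ± 5.22 in Cj (SD, n = 9), a mean log2 difference of -0.26 (exact two-sided permutation test within pH, p = 0.108, adjusted p = 0.216 over the 6 tests of the ratio). The ratio was lower at pH 8.0 (16.3 ± 4.95) than at pH 6.5 (21.7 ± 2.61, SD, n = 6), a log2 difference of -0.46 (exact permutation within rootstock, p = 0.025, adjusted p = 0.15), which failed the adjustment. In Pt all 3 libraries at pH 8.0 and all 3 at pH 9.5 lay below the 3 at pH 6.5, with log2 differences of -0.64 and -0.41, each at an exact permutation p of 0.1, the smallest that 3 against 3 libraries allow. In Cj the ranges at the 3 pH values overlapped. At pH 9.5 (17.3 ± 5.21) against pH 6.5 the log2 difference was -0.36 (exact permutation, p = 0.07, adjusted p = 0.21), and at pH 9.5 against pH 8.0 it was 0.09 (p = 0.665, adjusted p = 0.798, exact permutation). Neither difference in response of the ratio passed the exact permutation test, with -0.37 at pH 8.0 (adjusted p = 0.6, and between -0.58 and -0.15 with single libraries left out) and -0.09 at pH 9.5 (adjusted p = 0.82). Without Pt pH 8.0 replicate 1 the difference of pH 8.0 from pH 6.5 was -0.38.

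**Figure D3:**
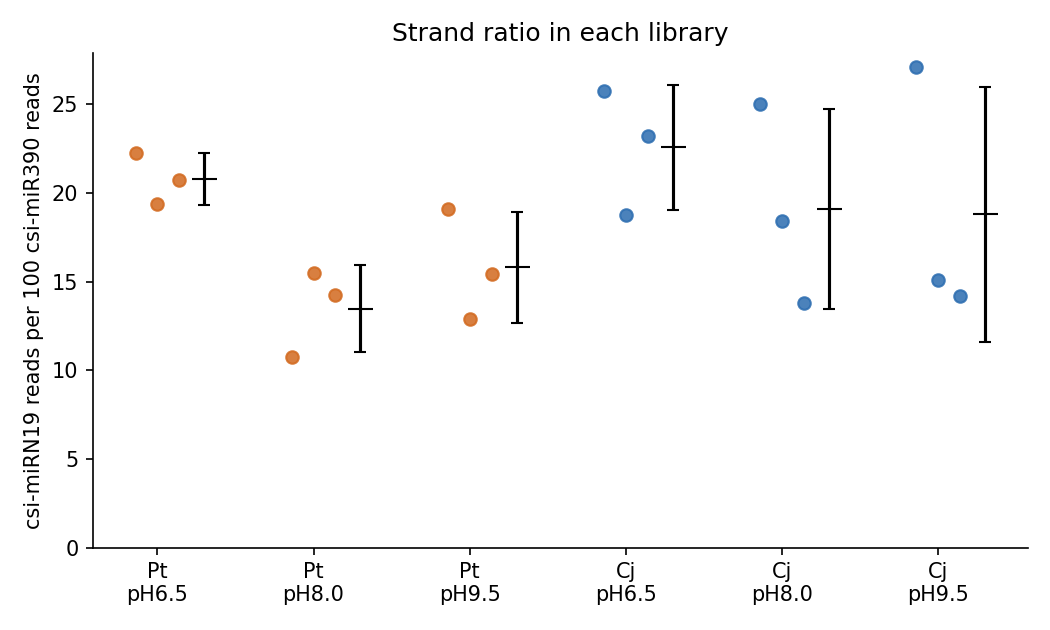
Reads of csi-miRN19 per 100 reads of csi-miR390 in each library, by rootstock and pH, with the mean ± SD of 3 libraries. The Pt libraries at pH 6.5 lie between 19.4 and 22.3, above those at pH 8.0 and 9.5, and the Cj groups span from 13.8 to 25.0 at pH 8.0 and from 14.2 to 27.1 at pH 9.5.

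Across libraries no correlation of the strands passed the test within a rootstock. Pearson's r of their log2 CPM was 0.26 over the 9 Pt libraries (exact permutation p = 0.5, Spearman's rho 0.18, p = 0.644) and 0.58 over the 9 Cj libraries (exact permutation p = 0.107, rho 0.60, p = 0.0968). Adjusted over these 4 values the p was 0.644 in Pt and 0.215 in Cj. Without the 2 libraries farthest from the median of csi-miR390, r was 0.40 in Pt and 0.42 in Cj (n = 7, adjusted p = 0.444 for both, exact permutation). After the mean of each pH group was subtracted, a step added after seeing the data and given with no test, r was 0.79 in Pt and -0.29 in Cj. The rootstocks form separate clusters, so no r was taken over all 18 libraries.

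**Figure D4:**
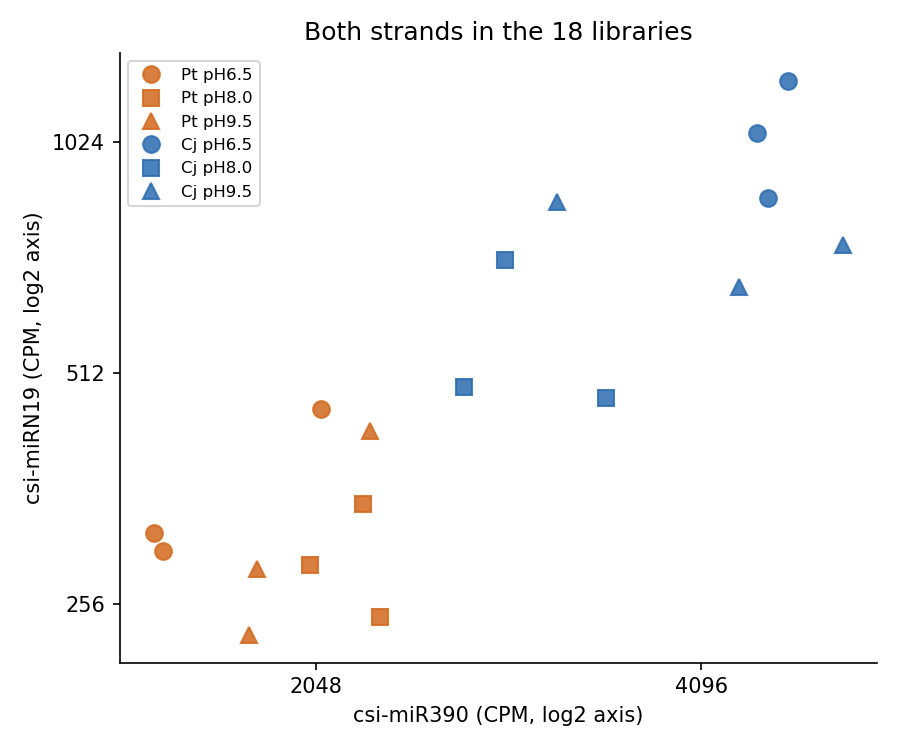
csi-miRN19 against csi-miR390 in CPM on log2 axes, 1 point per library, with colour for the rootstock and shape for the pH. The Pt and Cj libraries form clusters that are apart on both axes, and within a cluster the points scatter.

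The strand ratio of the miR390 hairpin was set beside those of 6 other strand pairs that are both listed. Over the 18 libraries its median was 18.6 reads of the opposite strand per 100, with a range of 10.7 to 27.1. The pair csi-miR166e-5p and csi-miR166e-3p, of the family that acts on class III HD-ZIP genes, had a median of 18.8 (13.9 to 26.4). The pair csi-miR172a-5p and csi-miR172a-3p, of the family that acts on APETALA2-like genes, had a median of 19.8, with a wide range of 3.51 to 59.4 on as few as 2 reads. For csi-miRN18 with csi-miR393, of the family that acts on TIR1/AFB auxin receptors, the median was 19.6 in Pt and 11.1 in Cj. The medians were 5.91 for csi-miR162-5p with csi-miR162-3p, 4.58 for csi-miR482a-5p with csi-miR482a-3p and 0.378 for csi-miRN28 with csi-miR167b. csi-miRN19 thus lay among the pairs with more of the opposite strand. These values are descriptions of read counts, with no test.

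**Figure D5:**
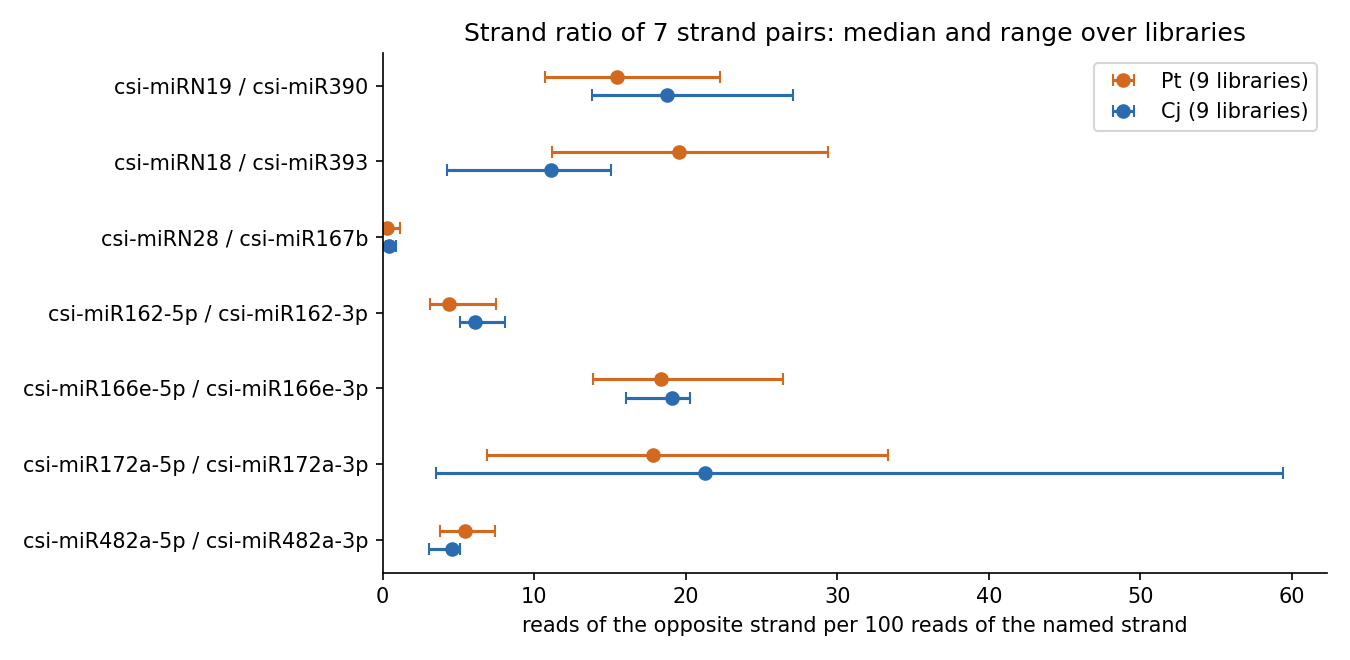
Reads of the opposite strand per 100 reads of the named strand for 7 strand pairs, with the median and the range over 9 Pt and 9 Cj libraries. The pair csi-miRN19 and csi-miR390 has medians of 15.5 in Pt and 18.8 in Cj, close to the csi-miR166e pair and above the csi-miR162 and csi-miR482a pairs.

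Other listed miRNAs from families of auxin signalling were followed beside the pair, 9 members in all. The families MIR160 and MIR167 act on auxin response factors, and MIR393 acts on auxin receptors. MIR164 acts on NAC factors with a role in lateral roots. The 9 include csi-miRN18 and csi-miRN28, taken above as the opposite strands of csi-miR393 and csi-miR167b. Counts over this list therefore hold both strands of those pairs, and also members of the same family, which need not vary independently. In Cj at pH 8.0 against pH 6.5, where both strands of miR390 were lower, 4 of the 9 were called lower and none higher, where 25.0% of all tested miRNAs were called lower and 36.5% in either direction. The median log2 difference of the list was -0.42, beside 0.03 over all tested miRNAs. The called ones were csi-miR164 (-0.95, SE 0.20, adjusted p = 0.000646) and the MIR160 members csi-miRN45 (-1.03, adjusted p = 0.000318), csi-miRN40 (-0.74, adjusted p = 0.0186) and csi-miRN43 (-0.66, adjusted p = 0.0103). csi-miR164 averaged 1822 ± 276 CPM at pH 8.0 and 3516 ± 473 CPM at pH 6.5 in Cj, and csi-miRN45 averaged 2297 ± 402 CPM and 4709 ± 475 CPM (SD, n = 3). The MIR167 and MIR393 members were not called there.

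Between the rootstocks the list was mixed. csi-miR393 and csi-miRN18, called together at each pH, are the strands of 1 pair. At pH 6.5, 2 of the 9 were called higher in Pt and 3 lower, which is no more than the 63.5% called over all tested miRNAs. Higher were csi-miR393 (0.60, adjusted p = 0.0404) and csi-miRN18 (1.82, adjusted p = 0.000669), and lower were csi-miRN43 (-1.62, adjusted p = 8.98e-08), csi-miRN45 (-0.53, adjusted p = 0.0263) and csi-miRN28, which had 2 reads over the Pt libraries and 28 over the Cj libraries (ratio 0.0564, exact 95% counting interval 0.00651 to 0.224). At pH 8.0 and at pH 9.5, 3 of the 9 were higher in Pt and 2 lower, near the 59.4% called over all tested miRNAs at both pH values. In both cases these were csi-miR164 (0.86 and 0.73), csi-miR393 (0.73 and 0.79) and csi-miRN18 (1.74 and 1.25) as the higher ones and csi-miR167b (-0.80 and -0.80) and csi-miRN43 (-1.49 and -1.86) as the lower ones. The median log2 difference of the list was -0.19 at pH 6.5, 0.26 at pH 8.0 and 0.04 at pH 9.5, beside -0.04, 0.19 and -0.10 over all tested miRNAs. In the response to pH 8.0, Pt minus Cj, csi-miR164 (1.05, adjusted p = 0.0149) was called in the same direction as csi-miR390, csi-miR167b (-0.76, adjusted p = 0.0391) in the other, and the remaining 7 were not called.

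The miRNAs most like each strand were taken by Pearson's r of log2 CPM over the 18 libraries after the mean of each rootstock was subtracted, among the 94 other tested miRNAs. These values share libraries, depth and scaling, and they are descriptions. For csi-miR390 they were csi-miR319 (r = 0.84), whose family acts on TCP factors, csi-miR164 (r = 0.78) and csi-miR394 (r = 0.73), whose family acts on an F-box gene. For csi-miRN19 they were csi-miR396b (r = 0.71), whose family acts on growth-regulating factors, csi-miR394 (r = 0.66) and csi-miRN24 (r = 0.66). csi-miR394 was on both lists. The strands of the miR390 hairpin had an r of 0.48 with each other by this measure, and 17 other miRNAs stood closer to csi-miR390 than csi-miRN19 did, as 20 stood closer to csi-miRN19 than csi-miR390 did. Without the subtraction the r of each named miRNA with its strand was lower. With csi-miR390 it was -0.41 for csi-miR319, -0.16 for csi-miR164 and 0.35 for csi-miR394. With csi-miRN19 it was 0.09 for csi-miR396b, 0.33 for csi-miR394 and 0.28 for csi-miRN24. The likeness of these miRNAs thus concerns the variation within the rootstocks. For the strands with each other, r was not taken without the subtraction.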

How the data were processed

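Small RNA libraries were made with a NEBNext kit and sequenced on an Illumina instrument by the study, which trimmed adapters, dropped poor reads, screened out structural RNA and repeats with Bowtie, matched reads to the Citrus sinensis genome (release not given in the sources used here) and predicted miRNAs with miRDeep2. The deposited counts are whole reads of each mature miRNA, not normalised by the authors. The deposited TPM values divide these counts by what the study calls total mapped reads, with no term for length. Those totals served as 1 alternative library size. They ran from 125084 to 1034566 reads, and the listed miRNAs made up 61.8% to 83.1% of them. Which reads they cover was not checked, and they are not the whole small RNA pool that the study took to mapping. The score deposited by the authors for a precursor and its folding energy entered no test. Of 103 lines, repeats of csi-miRN52 were dropped, leaving 100 miRNAs. A predicted miRNA whose line held no values is not reported here. The study used DESeq 1.10.1 on pairs of groups, and edgeR was used here in its place.

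Counts were fitted with edgeR 4.0.16 (R 4.3.3, TMM factors, quasi-likelihood F test, filterByExpr with a minimum count of 10 and a minimum total of 15, 96 miRNAs tested) with 6 group means over all 18 libraries. Adjusted p-values are Benjamini-Hochberg values over the tested miRNAs. Strand ratios were compared on the log2 scale by exact two-sided permutation of library labels within pH (8000 arrangements) or within rootstock (400). The csi-miR390 precursor was folded with RNAfold (ViennaRNA 2.7.2). The scripts were tested on simulated data. Named were both strands in every comparison, auxin-list members called where a strand was called, the 3 miRNAs most like each strand, and 6 other strand pairs. Members, lists and pairs were chosen with earlier results of these data known. Likeness used log2 CPM with a prior count of 2. Alternatives were 4 other scalings, no count filter, the DESeq2 1.42.0 Wald test, limma-voom (limma 3.58.1), fits on the compared groups alone, a replicate block, and leaving out each library. For the ratio they were summed reads, 1 added read, single strata and the same omissions.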

Additional observations from a re-analysis of the deposited data

Results flagged for a closer look

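The response of csi-miR390 to pH 8.0 differed between the rootstocks, by 0.98 on the log2 scale (Pt minus Cj, edgeR quasi-likelihood test, adjusted p = 0.0149), and this difference itself was tested. In CPM csi-miR390 averaged 2185 ± 141 at pH 8.0 and 1716 ± 303 at pH 6.5 in Pt, and 2999 ± 403.5 at pH 8.0 and 4644 ± 129.5 at pH 6.5 in Cj (SD, n = 3). The libraries at pH 8.0 and 6.5 overlapped in Pt, where replicate 1 at pH 6.5 (2066 CPM) stood above replicate 3 at pH 8.0 (2027 CPM), and did not overlap in Cj. The opposite strand had 0.66 in the same direction (adjusted p = 0.228), and the difference between the strands was not called (strand ratio -0.37, exact permutation, adjusted p = 0.6). That value was -0.17 on reads summed over each group, -0.21 without the shallow Pt pH 8.0 replicate 1, -0.24 without Cj pH 6.5 replicate 2, and in Cj at pH 8.0 it was -0.15 without replicate 1 and -0.58 without replicate 3.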

How the results depend on the processing

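Over 30 results and 465 alternatives, 440 counted as unchanged. Where an alternative had a p, this means the same direction and side of the threshold. Alternatives without a p were judged by the size of the shift alone. Single strata of the strand ratio cannot go below an exact permutation p of 0.1, so they could not cross the threshold. With each library left out in turn, csi-miR390 ranged from -0.61 to -0.39 for Pt against Cj at pH 8.0, from -0.66 to -0.45 for pH 8.0 against 6.5 in Cj, from -0.27 to 0.03 for pH 9.5 against 6.5 in Cj, from 0.26 to 0.56 for pH 9.5 against 8.0 in Cj and from 0.79 to 1.02 for the response to pH 8.0. csi-miRN19 ranged from -0.36 to 0.02 for pH 9.5 against 6.5 and from -0.16 to 0.23 for pH 9.5 against 8.0 in Pt, and no csi-miRN19 call was lost. The strand ratio ranged from -0.06 to 0.20 for pH 9.5 against 8.0 and from -0.26 to 0.20 for the response to pH 9.5, so these had no stable sign. With total mapped reads as library sizes csi-miR390 had 0.48 for pH 9.5 against 8.0 in Cj and passed the threshold. Within Cj alone the ratio differed by -0.04 between pH 9.5 and 8.0. After the mean of each pH group was subtracted, chosen after seeing the data, r between the strands was 0.79 in Pt and -0.29 in Cj. The causes were not tested.

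The libraries were not treated as paired by replicate number, since the labels give the numbers no meaning. Of 45 same-numbered pairs, 13 correlated above 0.1 (r of deviations from -0.29 to 0.44, median 0.03). These values describe the pairs and do not decide whether pairing would be right. Pairs with different numbers had a median r of -0.007. As a hint from the data, 10 of 18 libraries were closest to their own number. Whether the numbers mark a shared batch was not tested. The replicate block reversed csi-miRN19 for pH 9.5 against 8.0 in Pt (-0.04) and moved no other result across the threshold or 0. For csi-miRN19 at pH 8.0 against 6.5 in Cj it changed the SE from 0.240 to 0.197. The edgeR adjusted p there went from 0.00443 to 0.000491. Calls for pH 9.5 against 6.5 in Cj rose from 27 to 40 with the block.

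Counts of called miRNAs moved most for Pt at pH 8.0 against 6.5 (9, against 22 with total mapped reads), for the response to pH 8.0 (10, against 17 with total mapped reads or with TMM factors from known miRNAs, 6 without Pt pH 8.0 replicate 3 and 5 without Cj pH 6.5 replicate 1), for the response to pH 9.5 (18, against 29 without Pt pH 6.5 replicate 1), for Pt at pH 9.5 against 8.0 (17, against 11, 9 and 8 without Pt pH 8.0 replicate 2, Pt pH 8.0 replicate 3 or Pt pH 9.5 replicate 1) and for Cj at pH 8.0 against 6.5 (35, against 21 without replicate 3 at pH 6.5 and 19 without replicate 2 at pH 8.0). Depth limits csi-miRN19 most, with 19 reads in Pt pH 8.0 replicate 1.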

Other observations

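Replicate 1 had the highest csi-miRN19 level of its group in 5 of the 6 groups and the highest csi-miR390 level in 4. It also had the highest strand ratio in 5 of the 6 groups, the exception being Pt at pH 8.0, where replicate 1 is the shallow library and had the lowest ratio. The labels name no batch or day for the replicate numbers. In Cj at pH 9.5 the libraries ran against each other on the strands: replicate 1 was lowest for csi-miR390 (3157 CPM) and highest for csi-miRN19 (855 CPM), while replicate 3 was highest for csi-miR390 (5288 CPM) at 751 CPM of csi-miRN19. In Cj at pH 8.0 replicate 3 was likewise highest for csi-miR390 (3450 CPM) and lowest for csi-miRN19 (475.9 CPM).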
